A study of Homo sapiens with 15 samples.

Results

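The human alpha- and beta-globin gene clusters, which encode the protein chains of haemoglobin, were examined for G-quadruplexes (G4s), folds of guanine-rich DNA in which guanines pair in stacked squares. The 10 members were HBZ, HBM, HBA2, HBA1 and HBQ1 of the alpha cluster on chromosome 16 and HBE1, HBG2, HBG1, HBD and HBB of the beta cluster on chromosome 11, out of 19820 protein-coding genes. The data came from chromatin immunoprecipitation with BG4, an antibody against G4s, in K562, an established cell line from human chronic myelogenous leukaemia that has erythroid features. The cells were untreated and not synchronised, and their chromatin was cross-linked with formaldehyde and sheared to about 100 to 500 bp. Biological replicate 1 gave 2 technical libraries, 1a and 1c, and biological replicate 2 gave 3, called 2a, 2b and 2c. All values therefore describe 1 cell line in 1 state, and both clusters were read in the same 5 libraries.

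Peaks were taken within 1 kb of a GENCODE start site of a member, and anywhere from the first to the last member of a cluster with 50 kb on either side. On hg19 (GRCh37) the alpha window was chr16:152643-281178 and the beta window chr11:5196694-5341175, set by the MANE Select transcript of each gene. A high-confidence region is a stretch covered by peaks of at least 3 of the 5 libraries. The 2 windows held 7 of the 8955 high-confidence regions, 5 in the alpha window and 2 in the beta window, and 43 of the 50770 peaks. Library 1a had 11 of its 12495 peaks there, library 1c had 7 of 10079, library 2a had 5 of 8059, library 2b had 8 of 9026 and library 2c had 12 of 11111. The number of reads per library is unknown, and peak names in lists 2a and 2c carry each other's letter, so values given for 2a may belong to 2c and the reverse. No RNA data were used, so neither the erythroid character of the cells nor the activity of any globin gene was checked here.

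Haemoglobin joins alpha-like and beta-like chains around haem, and the genes of each cluster lie roughly in the order in which development uses them. HBZ and HBE1 encode the embryonic zeta and epsilon chains, HBG2 and HBG1 the fetal gamma chains, HBA2 and HBA1 the alpha chains of fetal and adult life, and HBB and HBD the adult beta and delta chains. The alpha genes lie in open, GC-rich chromatin with CpG islands and are driven by enhancers upstream of HBZ, most of them inside introns of the housekeeping gene NPRL3. The beta genes lack CpG islands, lie among olfactory receptor genes, and are driven by a locus control region upstream of HBE1 made of hypersensitive sites numbered HS1 onward. K562 is known for embryonic and fetal globin production. The files name no enhancer: the names HS-48, HS-40, HS-33, HS-10 and HS1 to HS4 are used here for peaks within 1 kb of the textbook distance of such an element from HBZ or HBE1, and rest on distance alone.

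The sequences of the 2 high-confidence regions of the beta cluster are shown because both lie near the textbook distance of an enhancer and lack a whole G4 motif. A G4 motif is defined as 4 runs of at least 3 G that are set apart by 1 to 7 bases, on the plus or the minus strand. They are reference sequence, hg19, plus strand. Capitals mark TGACTCA (the core bound by AP-1 and the erythroid factor NF-E2) and CCACCC (the CACCC box bound by Krüppel-like factors), each on either strand. AGATAA, a form of the core bound by GATA factors, was searched too and is in neither. Other forms were not searched, and AGATAG, for example, can be read in both on either strand.
HS2, chr11:5301898-5302111: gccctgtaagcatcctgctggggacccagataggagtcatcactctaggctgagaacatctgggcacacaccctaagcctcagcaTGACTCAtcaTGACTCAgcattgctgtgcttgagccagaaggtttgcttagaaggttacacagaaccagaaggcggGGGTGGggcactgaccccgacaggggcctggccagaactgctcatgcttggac
HS3, chr11:5305931-5306059: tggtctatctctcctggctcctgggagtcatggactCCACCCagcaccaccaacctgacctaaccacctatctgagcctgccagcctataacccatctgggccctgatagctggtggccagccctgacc
The region over HBZP1, a zeta-globin pseudogene beside HBM, was by contrast a G-rich repeat with 41 runs of 3 or more G and 10 G4 motifs.

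The first comparison set the CpG-island alpha cluster beside the beta cluster. BG4 regions were found in both, more densely in the alpha window, and they lay at different kinds of sites. In the alpha window they lay at the distal enhancer HS-40, at the NPRL3 start, at HBZP1 and at both ends of HBQ1. In the beta window both lay in the locus control region, at HS2 and HS3, and none within 1 kb of a member's start. There were 3.89 regions per 100 kb in the alpha window (exact Poisson 95% interval 1.26 to 9.08) and 1.38 in the beta window (0.168 to 5.0), against 0.313 over the genome. The intervals cover counting error only and overlap. Of 100 kb tiles of the genome, 18.2% held at least 1 region, 6.69% at least 2 and 1.55% at least 4. The windows are longer than these tiles, 129 kb for alpha and 144 kb for beta, so their counts are not directly comparable. The beta count of 2 changed when single libraries were left out: without 1a, 2b or 2c it was 1 and the region lost was HS3, which had peaks in only those 3.

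**Figure D1:**
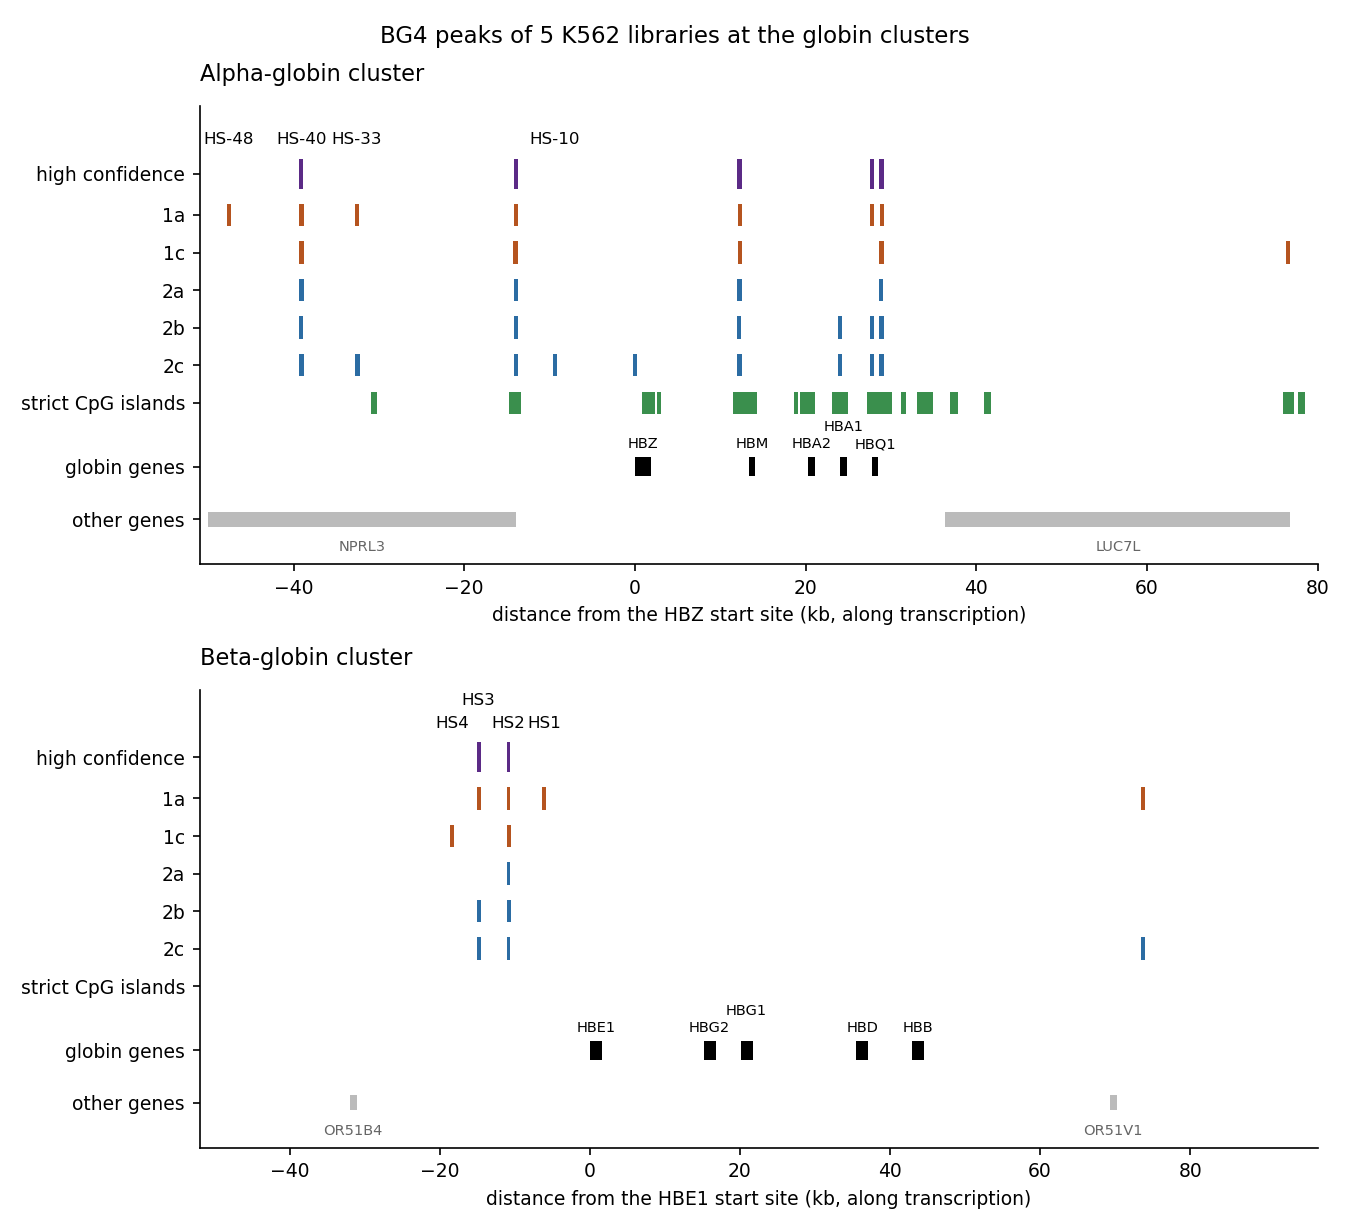
Peaks of each library, high-confidence regions, strict CpG islands and genes in the alpha window (upper panel) and the beta window (lower panel), against distance in kb from the HBZ or HBE1 start site, with the direction of transcription to the right. Marks are drawn at least 0.5 kb wide. HS-40 and HS2 have a peak in all 5 libraries, and the beta window has no strict CpG island.

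Library by library, peaks were counted and then divided by window length. The alpha and beta windows held 7 and 4 peaks in library 1a, 5 and 2 in 1c, 4 and 1 in 2a, 6 and 2 in 2b, and 9 and 3 in 2c. Per 100 kb this was 5.45 in the alpha window and 2.77 in the beta window for library 1a, 3.89 and 1.38 for 1c, 3.11 and 0.692 for 2a, 4.67 and 1.38 for 2b, and 7.0 and 2.08 for 2c. The alpha window was denser in 5 of 5 libraries, although the lowest alpha value, 3.11 in 2a, was close to the highest beta value, 2.77 in 1a.

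Averaged within biological replicates first, density was 4.80 ± 0.183 peaks per 100 kb in the alpha window and 1.73 ± 0.489 in the beta window (SD, n = 2 biological replicates). The difference was 3.07 ± 0.673. The bases covered by peaks were 1008 ± 10.3 per 100 kb in the alpha window and 307 ± 70.2 in the beta window, a difference of 701 ± 60.0 (SD, n = 2). An exact two-sided sign-flip permutation test over the 5 libraries gave p = 0.0625 for either measure, which is the smallest p that 5 libraries allow and does not pass 0.05. The libraries of a biological replicate are technical, and the windows differ in GC content, 51.0% in alpha and 38.3% in beta, whose part in the difference was not tested.

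**Figure D2:**
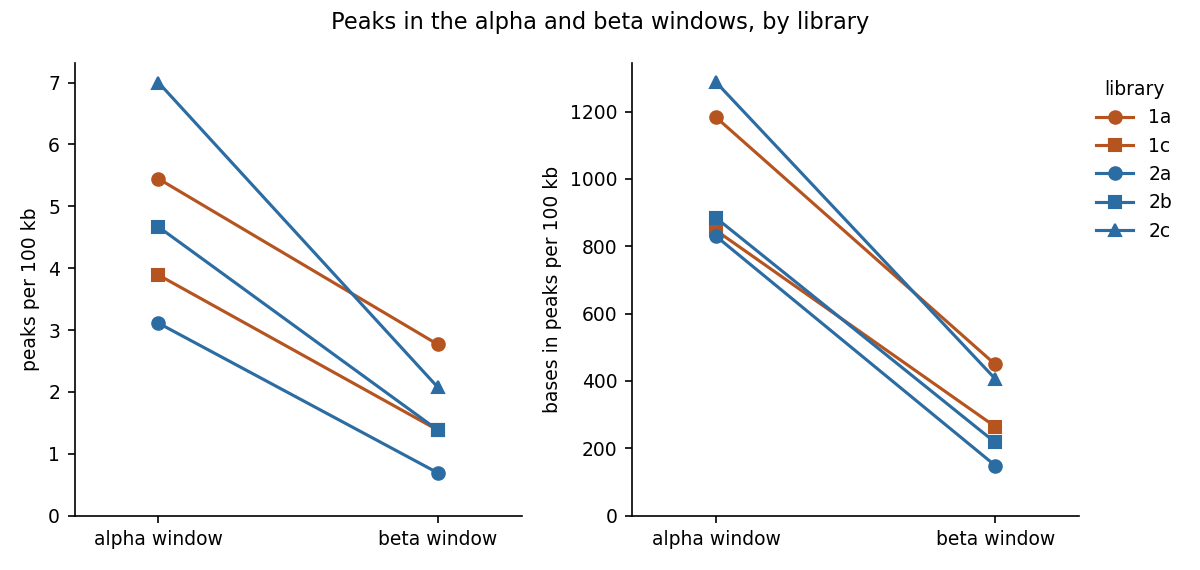
Peaks per 100 kb (left) and bases in peaks per 100 kb (right) in the alpha and beta windows, with 1 line per library, orange for biological replicate 1 and blue for replicate 2. Each of the 5 lines is higher at the alpha window.

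Counting every place with a peak in any library, the alpha window had 11 separate loci and the beta window 5. Of these, 5 in the alpha window and 2 in the beta window were high-confidence regions. Among those regions, 4 in the alpha window and 1 in the beta window had a peak in all 5 libraries. Of all high-confidence regions, 55.0% were covered in all 5. Single-library loci numbered 4 in the alpha window and 2 in the beta window, and loci with peaks in 2 libraries numbered 2 and 1. In bins of 2 kb, a peak of any library lay in 14 of 64 bins of the alpha window (21.9%) and in 5 of 72 bins of the beta window (6.94%).

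CpG islands were abundant in the alpha window, and most of them, like most islands of the genome, carried no region. A strict island (500 bp windows, GC of at least 0.55, observed over expected CpG of at least 0.65) occurred 15 times in the alpha window and not at all in the beta window. Of the 15, 3 carried a high-confidence region, beside 17.8% of all strict islands of the genome, and 5 carried a peak of any library. The 3 islands held the NPRL3 start, HBZP1, and the pair of regions at HBQ1. Looser islands (200 bp, 0.5 and 0.6) numbered 71 in the alpha window, 3 with a region, and 6 in the beta window, none with a region, beside 2.03% in the genome.

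Sequence able to form a G4 by the motif rule was mostly without a called region, as over the genome. The share with a region was higher in both windows. Regions themselves were also denser there, at 3.89 per 100 kb in alpha and 1.38 in beta against 0.313 over the genome. The shares were not adjusted for this density. The alpha window had 55 motifs (42.8 per 100 kb) and the beta window 15 (10.4 per 100 kb), against 13.3 per 100 kb in the genome. A region overlapped 11 of the 55 alpha motifs and 1 of the 15 beta motifs, beside 1.46% of all motifs. Of the 11, 10 belonged to the HBZP1 repeat. The other one crossed the edge of the HS-40 region, and the beta motif crossed the edge of the HS3 region, with 8 of its 19 bases inside.
HS3 edge, chr11:5306052-5306070, minus strand: GGGtGGGGtGGGGtcaGGG
Capitals in this line mark the runs of 3 or more G. Of the 7 regions only HBZP1 held a whole motif, while 65.3% of all high-confidence regions held none.

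**Figure D3:**
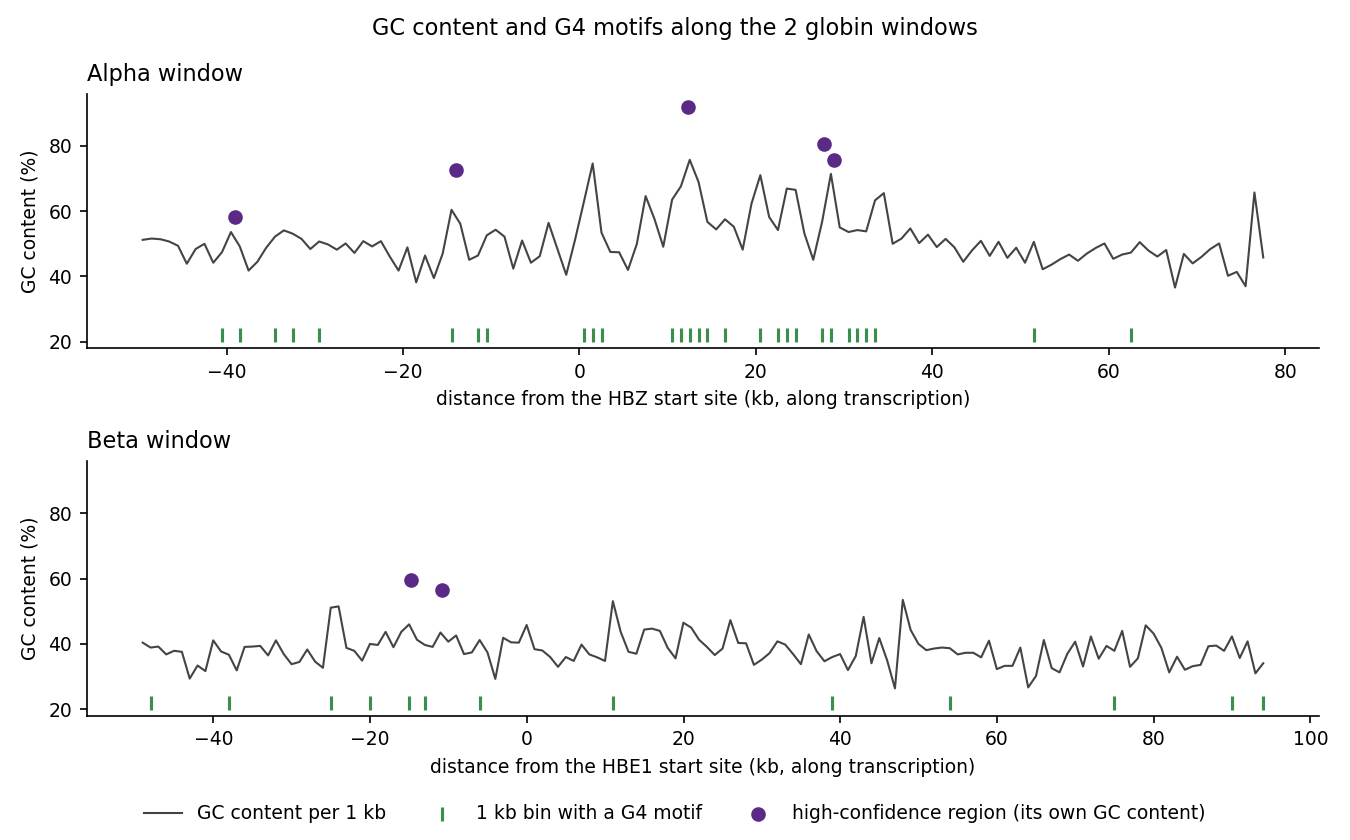
GC content in 1 kb bins (line, %), bins with a G4 motif (green ticks) and the GC content of each high-confidence region itself (purple points) in the alpha window (upper) and the beta window (lower), against distance in kb from the HBZ or HBE1 start site. The HBZP1 region stands highest at 91.8%, and the regions at HS-40, HS2 and HS3 lie between 56.5% and 59.7%.

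Among the members themselves, the start sites with a high-confidence region nearby were those of HBM and HBQ1. Within 1 kb of a start site of protein-coding transcripts, a high-confidence region was present in 2 of 5 alpha genes and in 0 of 5 beta genes. The share was 34.8% over all protein-coding genes, 45.4% over those with a strict CpG island at a start site and 2.44% over those without. Here and below, an island counted as at a start site if any of it lay no more than 1 kb away. All 5 alpha genes had such an island and no beta gene did. The count of each cluster thus lay near the share of genes of its island class. The island counted for HBZ began 0.882 kb downstream of the MANE Select start of HBZ and did not cover that start. A peak of any library lay within 1 kb in 4 of 5 alpha genes and 2 of 5 beta genes, beside 47.7% of all genes. The 2 beta genes, HBE1 and HBG2, met this rule only through start sites of long transcripts 236 kb and 251 kb from their MANE Select starts, where library 2a had a peak, and neither had a peak at the MANE Select start itself.

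HBZ, encoding embryonic zeta globin (chr16:202643-204502, plus strand), had a peak over its start in library 2c only, with a fold enrichment of 5.51. Fold enrichment is the authors' peak-caller ratio of signal over local background at the summit. This peak of 106 bp, chr16:202633-202738, covered annotated untranslated sequence and held 1 G4 motif. The other 4 libraries had no peak there. The nearest high-confidence region to the HBZ start was 12108 bp away, at HBZP1.

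HBM (chr16:215977-216763) encodes mu globin, an alpha-like chain of minor abundance. Its region was the HBZP1 repeat, 923 bp from the HBM start, annotated as a pseudogene exon and as intron of a longer HBM transcript. Fold enrichment was 9.61 and 7.45 in replicate 1 (1a, 1c) and 7.50, 6.79 and 7.75 in replicate 2 (2a, 2b, 2c). All 5 libraries had the peak, from 6.79 to 9.61, with a mean of 7.94 ± 0.836 (SD, n = 2 biological replicates). The summits spread over 162 bp of the repeat. The peak of library 2b did not reach within 1 kb of the HBM start, so 4 libraries counted for the gene. The GC content of 91.8% was higher than that of 99.8% of high-confidence regions. Its fold enrichment exceeded that of 60.2% to 81.1% of the peaks in the same list, so extreme sequence came with peaks of moderate to high rank.

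HBA2 and HBA1 encode the same alpha chain and are near-identical copies. HBA2 (chr16:222875-223709) had no peak within 1 kb of a start in any library. HBA1 (chr16:226679-227521) had a peak over its start, chr16:226606-226720, in libraries 2b and 2c, with fold enrichments of 5.98 and 5.70 and summits 7 bp apart. Neither library of replicate 1 had it, and it did not reach the high-confidence list. From 500 bp upstream to 300 bp downstream of the start the copies were 99.6% identical, with 3 differences over 802 aligned positions. The sources used here do not say how reads that map to both copies were treated, so signal at the 2 genes cannot be told apart. The long noncoding RNA gene ENSG00000290010 shares the HBA1 peak within 1 kb of its start.

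HBQ1 (chr16:230458-231178) encodes theta globin, an alpha-like chain whose role is little known. It had a region at either end. The one over the start, chr16:230312-230502, reaching into the coding exon, had fold enrichments of 4.87 in library 1a, 6.23 in 2b and 6.81 in 2c, and no peak in 1c or 2a. The one beyond its 3′ end, chr16:231414-231630, lay 956 bp from the start with no annotated feature there. It had fold enrichments of 10.2 and 9.73 in replicate 1 (1a, 1c) and 3.68, 3.26 and 2.85 in replicate 2 (2a, 2b, 2c). Every library had this peak, yet the 2 biological replicates did not overlap, with means of 9.97 in replicate 1 and 3.26 in replicate 2. Within their lists the replicate 1 peaks exceeded 85.2% and 87.4% of peaks, while those of replicate 2 exceeded 0.833%, 0.433% and 0.234%. Among regions covered in all 5 libraries, a gap of at least 50 percentile points in this direction occurred in 1.26% and in the opposite direction in 0.264%. The GC content was 80.6% over the start and 75.6% at the 3′ side, and neither region held a whole G4 motif.

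**Figure D4:**
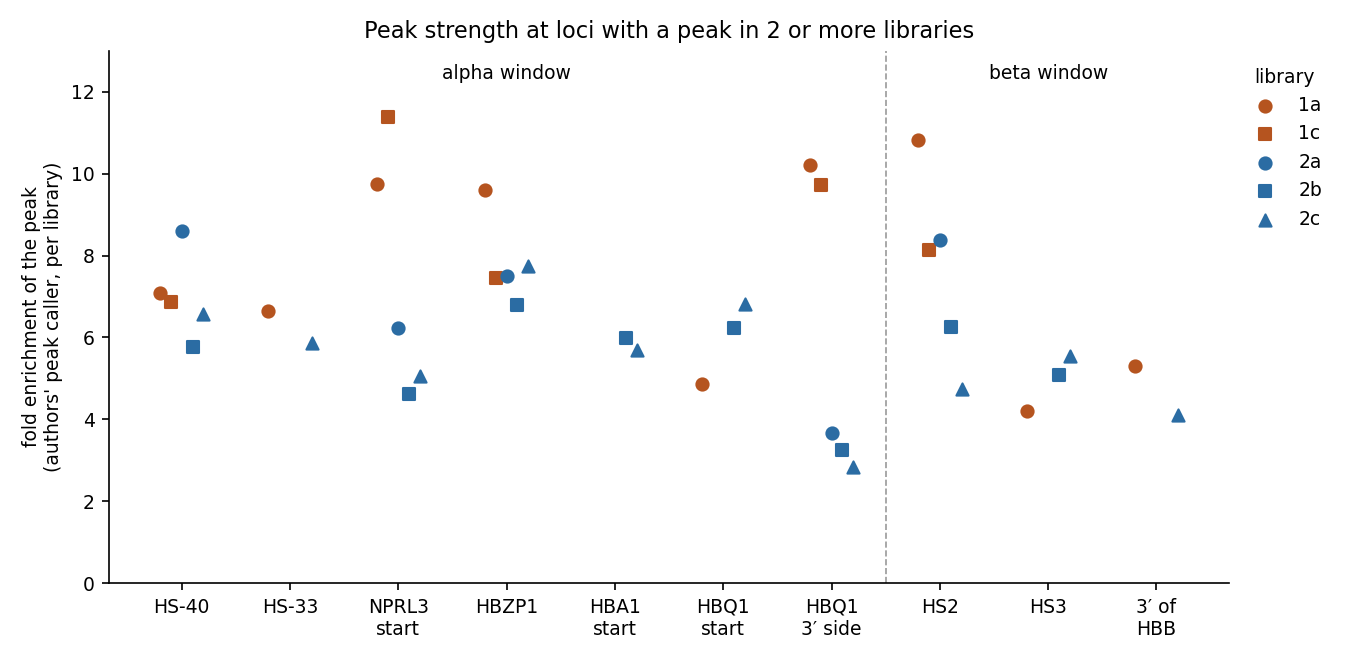
Fold enrichment (authors' peak caller, no unit) at each locus of the alpha window (left) and the beta window (right) with a peak in 2 or more libraries, 1 point per library, orange for biological replicate 1 and blue for replicate 2. At the 3′ side of HBQ1 the replicate 1 points lie at 9.73 and 10.2 and the replicate 2 points between 2.85 and 3.68.

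The alpha enhancers had signal mainly at HS-40, the element known as the strongest alpha-globin enhancer. Its region, chr16:163450-163669, lay 39.1 kb upstream of HBZ in an intron of NPRL3. Fold enrichment was 7.09 and 6.86 in replicate 1 (1a, 1c) and 8.61, 5.76 and 6.58 in replicate 2 (2a, 2b, 2c). The 5 values ran from 5.76 to 8.61, with both extremes in replicate 2, although both biological replicates averaged near 6.98. Their rank was moderate, above 38.3% to 78.0% of peaks in the same list. The summits fell within 69 bp. The GC content of 58.2% was below that of most regions, since only 6.85% of regions had a lower one.

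The other alpha elements were weak or seen in few libraries. HS-33, chr16:169995-170186, also in an NPRL3 intron, had peaks in 1a and 2c with fold enrichments of 6.64 and 5.87. HS-48, chr16:155011-155179, had a peak in 1a only, of 5.53. HS-10, chr16:193206-193329, had one in 2c only, of 4.09, which exceeded 8.32% of that list, and lay 479 bp from a second HBZ start site, that of a longer transcript.

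NPRL3, which encodes a subunit of the GATOR1 complex that restrains mTORC1, had a region at its own start, chr16:188576-188798. Fold enrichment was 9.74 and 11.4 in replicate 1 (1a, 1c) and 6.22, 4.61 and 5.07 in replicate 2 (2a, 2b, 2c). The replicates did not overlap, with means of 10.6 in replicate 1 and 5.30 in replicate 2. Within their lists the peaks exceeded 82.8% and 94.2% of peaks in replicate 1 and 38.9%, 12.5% and 27.6% in replicate 2. The gap fell short of the 50 percentile points used at the 3′ side of HBQ1. How often regions separate by replicate in this way was not counted. This is a CpG-island promoter with a GC content of 72.6%. LUC7L, a splicing factor gene at the other end of the window, had a peak near its start in 1c only, of 4.37. Of the 8 other annotated genes with a start in the alpha window, which include HBZP1 and the alpha pseudogene HBAP1, none had a region within 1 kb of its start.

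In the beta window the locus with the highest mean fold enrichment, and the one seen in all 5 libraries, was HS2, the classical erythroid enhancer of the locus control region. Its region, chr11:5301898-5302111, lay 10.8 kb upstream of HBE1. Fold enrichment was 10.8 and 8.13 in replicate 1 (1a, 1c) and 8.39, 6.25 and 4.74 in replicate 2 (2a, 2b, 2c). All 5 libraries had the peak, over a wide range that averaged 9.47 in replicate 1 and 6.46 in replicate 2 (mean 7.96 ± 2.13, SD, n = 2). The mean of 6.98 at HS-40 of the alpha cluster differed from it by less than this SD. In its own list each peak exceeded from 19.4% (2c) to 87.8% (1a) of peaks. Its GC content was 56.5%, and 4.61% of regions had a lower one.

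HS-40 and HS2 shared further features. Both lay outside any CpG island, as did 11.9% of high-confidence regions, and both lacked a whole G4 motif, a combination found in 10.1%. The lack of a motif is common outside looser islands, where it held for 905 of 1068 regions. HS3 had the same combination. HS-40 and HS2 had a peak in every library, which held for 32.8% of the regions outside looser islands. The nearest G4 motif lay 44 to 113 bp from the HS-40 summits and 2077 to 2135 bp from the HS2 summits.

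The letters of the HS2 region were set beside those of all regions, with no comparison to HS-40. HS2 held TGACTCA at 2 places, seen above in capitals, while 4.89% of all regions and 20.5% of those outside looser islands held it at all and 0.492% of all regions held it more than once. The matches began at positions 5301983 and 5301993, between the lowest and highest summit at 5301972 and 5302030. HS2 held CCACCC once, beside 33.9% of all regions and 37.9% of those outside looser islands. AGATAA, absent from HS2, was in 4.32% of all regions and in 18.7% of those outside looser islands. A match of letters is a description and does not show a bound factor.

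HS3 and its neighbours had fewer peaks. HS3, chr11:5305931-5306059 and 14.8 kb upstream of HBE1, had fold enrichments of 4.20 in 1a, 5.09 in 2b and 5.54 in 2c and none in 1c or 2a. HS1, chr11:5297188-5297314, had a peak in 1a only, of 5.94, and HS4, chr11:5309435-5309584, in 1c only, of 5.38. All 4 sites fell in introns of long transcripts annotated to HBE1, HBG2 and ENSG00000239920. HS3 had no TGACTCA and HS4 had it once.

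The beta-globin genes themselves were without peaks within 1 kb of their MANE Select starts in all 5 libraries. From there the nearest high-confidence region was 10723 bp away for HBE1 (chr11:5289575-5291175, minus strand), encoding epsilon globin. It was 25887 bp away for HBG2 (chr11:5274418-5276011) and 30811 bp for HBG1 (chr11:5269499-5271087), encoding the gamma chains. For HBD (chr11:5254068-5255713), encoding delta globin, it was 46185 bp away, and for HBB (chr11:5246694-5248301), encoding adult beta globin, 53597 bp. For all 5 genes this region was HS2. HBG2 and HBG1 were 97.5% identical around their starts, which carries the same limit as for HBA2 and HBA1. The 12 other annotated genes with a start in the beta window, olfactory receptor genes and the pseudogene HBBP1 among them, had no peak within 1 kb of a start.

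The start sites of the 2 clusters differed in sequence without overlap. GC content within 1 kb was 57.0% to 67.0% over the 5 alpha genes and 38.3% to 43.6% over the 5 beta genes. Observed over expected CpG was 0.256 (HBZ) to 0.784 (HBQ1) in the alpha cluster and 0.0817 (HBD) to 0.183 (HBG2) in the beta cluster. Each alpha promoter held 2 or 3 G4 motifs, 13 in sum, and the beta promoters held 0. HBA2, with no peak, and its near-identical copy HBA1 held 3 motifs each.

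Genes that act on the globin clusters from elsewhere had regions at their own promoters in 11 of 23 cases, or 47.8%, beside 34.8% of all protein-coding genes, and in 10 of the 20 with a strict CpG island, beside 45.4%. ZBTB7A, a repressor of gamma globin, had a peak in all 5 libraries with fold enrichments of 11.3 to 13.7. ZFPM1, which encodes the GATA1 partner FOG1, EHMT1, a histone H3K9 methyltransferase, and NR2C2, a nuclear receptor that binds gamma and epsilon promoters, also had peaks in all 5, with fold enrichments of 10.9 to 19.7, 7.55 to 9.13 and 6.81 to 11.7. ATRX, a chromatin remodeller whose loss lowers alpha-globin output, and BCL11A, the main gamma-globin repressor, had no region and no peak in any library. KLF1, the activator of HBB, was chosen after its values were seen: it had peaks in 4 libraries, of 4.19 to 5.92, that did not form a region. Of 5 genes on a further list, among them the alpha-chain chaperone gene AHSP and the cytoglobin gene CYGB, 0 had a region. Only 3 of the 5 had a strict CpG island. The shares were 45.4% of all genes with such an island and 2.44% of those without. HAGH of this list, which is not a globin gene, was also chosen after its values were seen. It had peaks in 3 libraries, of 5.12 to 8.19, that did not form a region.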

How the data were processed

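BG4 chromatin immunoprecipitation in K562 was read from the peak lists of 5 libraries and a joint list of high-confidence regions. Peaks were called with MACS2 on hg19, per the submitters' processing notes. The aligner, control, settings and treatment of multi-mapping reads are not given in the sources used here. In the lists deposited by the authors, the score is a whole number tied to the −log10 p, fold enrichment is a ratio over local background, and the −log10 p and −log10 q belong to the summit. High-confidence regions carry positions and no value; rebuilding stretches covered by at least 3 lists gave the same 8955. Read numbers, and so depth, are unknown. Each library has its own list, so peaks were not called on pooled samples, and fold enrichments from different lists are set side by side as a description.

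Start sites came from GENCODE 44 lifted to GRCh37, and islands, GC content and motifs from the GRCh37 sequence (Python 3.11.15, numpy 2.4.6, scipy 1.17.1, pysam 0.24.0). Any overlap of 1 base counted. The island and motif scans and the search for stretches covered by at least 3 lists were tested on simulated data. The permutation test was not. The test was an exact two-sided sign-flip permutation over libraries. No low-value filter was added beyond the lowest deposited −log10 p of about 5. Alternatives were thresholds, window and promoter widths, island and motif rules, and each library left out. All 10 members are named, every other gene with a start in the windows was counted, and each list gave up to 4 genes with the highest lowest rank and the first 2 without a region. Members and lists were chosen with earlier results of these data known. Sequences of the alpha-cluster regions are not reported here. The input libraries and the HaCaT methylation data were not analysed here.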

Additional observations from a re-analysis of the deposited data

How the results depend on the processing

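The alpha window was denser than the beta window in every library under all 13 alternatives for peaks (difference 2.33 to 7.71 per 100 kb) and for bases (544 to 1633). Leaving out 1 library gave 2.72 to 3.35 and 666 to 741 (exact p = 0.125, the smallest 4 libraries allow), and 2 biological means 3.07 and 701 (exact p = 0.5, the smallest). Counts of regions are small and moved more. In the alpha window (5) they were 11 with stretches covered by at least 1 library, 3 with −log10 p of at least 10, 3 with −log10 q of at least 5, 2 with no flank and 8 with flanks of 100 kb. In the beta window (2) they were 5 with at least 1 library, 1 with all 5, 1 at either stricter threshold and 0 with no flank. Leaving out 1 library gave 4 to 5 in the alpha window and 1 to 2 in the beta window. Alpha members with a region (2) were 4 with at least 1 library, 0 with all 5, 1 at −log10 p of at least 10, 1 at −log10 q of at least 5, 1 within 500 bp and 1 where 50% of the region had to lie inside. Leaving out 1 library kept the number at 2. Beta members (0) were 2 with at least 1 library, both at the distant start. With runs of 2 or more G, 31 of 1004 motifs in the alpha window and 5 of 298 in the beta window met a region. The alpha islands with a region stayed at 3 in all 8 alternatives. Chosen after seeing the data, windows from whole GENCODE gene spans gave 6 and 2 regions, and MANE Select starts alone gave 2 and 0 members. No paired analysis was possible because there was 1 group of samples and so no second group to pair by replicate number. The sign-flip test compares the 2 windows within each library. The unknown depth limits what a missing peak shows: it is a signal not called at this depth.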

Other observations

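Just beyond the alpha window, 55.5 kb upstream of HBZ in an NPRL3 intron, a region at chr16:147034-147202 had a peak in all 5 libraries. Fold enrichment was 10.0 and 8.06 in replicate 1 (1a, 1c) and 9.06, 7.19 and 7.37 in replicate 2 (2a, 2b, 2c), a mean of 8.46 ± 0.834 (SD, n = 2), higher than the 6.98 of HS-40. It lay outside any CpG island, held no G4 motif, and held 1 match to a core of the CTCF motif (both strands searched). Such a match occurred in 3.99% of all regions and in 5.43% of those outside looser islands. CTCF is the main insulator protein.

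The wider surroundings of the clusters differed as their promoters did. Within 500 kb, outside the windows, 15 of 26 protein-coding genes beside the alpha cluster had a region (57.7%) and 0 of 36 beside the beta cluster. Of all protein-coding genes 34.8% had one. Strict CpG islands lay at 24 of the 26 and 1 of the 36, and 14 of those 24 and 0 of that 1 had a region, beside 45.4% of all genes with such an island and 2.44% of those without. POLR3K and SNRNP25, an RNA polymerase III subunit gene and a spliceosome gene, share 1 region with fold enrichments of 9.15 to 11.5. METTL26 and DECR2, a peroxisomal reductase gene, had 6.96 to 8.75 and 6.90 to 9.10. ARHGDIG beside the alpha cluster, and MMP26 and the olfactory receptor gene OR51A2 beside the beta cluster, had no region and no peak. MPG, a DNA repair glycosylase gene beside the alpha cluster, had peaks in 4 libraries, of 5.35 to 6.80, that did not form a region.

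On the far side of HBB, at chr11:5217418-5217581, libraries 1a and 2c had a peak of 5.31 and 4.09, 4331 bp from the nearest annotated start, that of OR51V1.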
